A study of Mus musculus with 12 samples.

Results

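The genes described here encode ion pumps, the vacuolar proton pump, ion channels and the claudins of tight junctions, in mouse renal medulla after water restriction. They were chosen by gene symbol alone: the ATP-driven pumps of the Atp1, Atp2, Atp4, Atp6 to Atp9 and Atp10 to Atp13 families, Fxyd, Kcn, Clcn, Clic, Scn, Cacn, Trpc, Trpm, Trpv, Aqp and Cldn, with Fxyd4 left out. Of 6786 genes measured, 60 met this rule, through 75 cDNA clones. They were 26 pump genes, 29 channel genes and 5 claudin genes, and 51 of the 60 rested on 1 clone. Some symbols name proteins that are not themselves pumps or channels. Scnm1 is a splicing factor, Trpc4ap a protein that binds a TRP channel, Cldnd1 a claudin-domain protein, and Kcnq1ot1 a long non-coding RNA that overlaps the potassium channel gene Kcnq1. No aquaporin, epithelial sodium channel or catalytic Na,K-pump gene was among the 60, and these genes were not analysed here.

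The groups were 3 water-restricted mice and 3 control mice, with 1 renal medulla sample from each animal. The labels give no strain, age, sex, or length of restriction. Each water-restricted animal was compared with each control animal on 2-colour arrays, which made 9 pairs of mice on 12 arrays, since 3 pairs were hybridised in both dye orientations. The arrays of 1 mouse share its RNA, so the 3 mice of each group, not the 12 arrays, are the replicates.

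The renal medulla holds the loop of Henle and the collecting duct, where salt is moved out of the tubule and urine is concentrated. The Na,K pump of the basolateral membrane exchanges sodium for potassium and drives this transport. The vacuolar proton pump joins a membrane sector, V0, to a cytosolic sector, V1, that splits ATP, and it acidifies endosomes, lysosomes and, in intercalated cells, the urine. Potassium, chloride and calcium channels set membrane voltage and recycle ions, and claudins decide which ions pass between cells. Water restriction raises vasopressin and the salt content of the medulla.

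Each value is a log2 ratio between a water-restricted and a control mouse, on 6 arrays with the water-restricted animal labelled with Alexa Fluor 546 (the 546 orientation) and on 6 with that animal labelled with Alexa Fluor 647 (the 647 orientation). Ratios of the 647 orientation had their sign turned. The sign has no settled direction, because which dye is the numerator of the deposited ratio is not given in the sources used here. If Alexa Fluor 546 is the numerator, positive values are higher in the water-restricted animals, and if Alexa Fluor 647 is, they are lower there. A further reading is that the deposited ratios were already turned, so that none should be turned here. Under that reading the differences of 17 of the 60 genes changed sign and those of 43 kept it. A mouse's level is its fitted position against the mean of the 6 mice, on the log2 scale, and a difference is the mean level of the water-restricted mice minus that of the control mice. Since the levels sum to 0, the 2 group means lie equally far above and below 0. These ratios give no absolute level, so no gene's abundance is set against another's, and the labelled tissue could not be checked by the presence of its markers. In such whole-tissue RNA, fewer cells of a type and less RNA per cell cannot be told apart.

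One array, which set water-restricted mouse 2 against control mouse 2 and is called the widest array here, stood apart, with an SD over its spots of 1.21, against 0.515 to 0.764 on the other 11 arrays. Arrays of 1 orientation correlated over genes at 0.0203 to 0.432. For the 3 pairs hybridised in both orientations, the 2 arrays correlated over genes at a mean of 0.0836 after turning. The pair of water-restricted mouse 2 and control mouse 1 was at -0.122, and the other pairs were at 0.178 and 0.195. Markers of single kidney segments, none of which passed the adjusted threshold (limma, adjusted p of at least 0.553), leaned with the groups. Of 24 proximal tubule markers listed, 5 were measured and 4 (Lrp2, Miox, Gatm and Slc22a7) were positive, with mean levels over the list of 0.39 to 0.54 in water-restricted mice and -0.92 to 0.22 in control mice. Of 12 principal cell markers, 4 were measured (Fxyd4, Krt18, Gata3 and Npnt) and all 4 were negative, with mean levels of -0.47 to -0.26 in water-restricted mice and 0.20 to 0.50 in control mice. No listed marker of the thick ascending limb or thin limb was measured. The part of these markers in the results below was not tested.

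No pump, channel or claudin gene passed the threshold of 0.05 between water-restricted and control mice after adjustment over all genes (limma, adjusted p of at least 0.884 for each), and 0% of the 6786 genes did. At an unadjusted p under 0.05, 3 of the 60 passed, all 3 of them positive pump genes: Atp6v0b, Fxyd6 and Atp1b1. Fxyd4, left out of the 60, was below that threshold as a negative gene (limma, unadjusted p = 0.00094). Over all genes 4.97% passed that threshold, 3.21% as positive and 1.75% as negative, so a count of 3 in 60 is close to the background. With 1 mouse left out, and so fewer samples, the count was 0 when water-restricted mouse 3 was out and 1 when control mouse 1 or control mouse 2 was. The share of all genes in those fits was not counted. The 60 differences had a median of -0.01 and ran from -0.39 to 0.54, with 28 positive and 32 negative. Pumps had a median of 0.07 with 16 of 26 positive, channels a median of -0.05 with 11 of 29 positive, and all genes a median of 0.00 with 50.7% positive. With 1 mouse left out the pump median ran from 0.05 to 0.17 and the channel median from -0.12 to -0.01, the ends of both coming from the fits without control mouse 2 and without control mouse 1. The levels of the mouse groups did not overlap for 6 members in the positive direction, all of them pump genes, where 5.94% of all genes did so. In the negative direction 3 members did so, all of them channel genes, against 3.86% of all genes. Without the widest array the same 6 pump genes had no overlap, against 6.07% of all genes, but of the 3 channel genes only Kcnd3 had none. With Cldn7, which then came apart in the negative direction, the members apart in either direction were 8 of 60, against 11.1% of all genes. Error of 1 array enters the levels of both its mice with opposite signs, which bears on such counts for every gene alike.

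**Figure D1:**
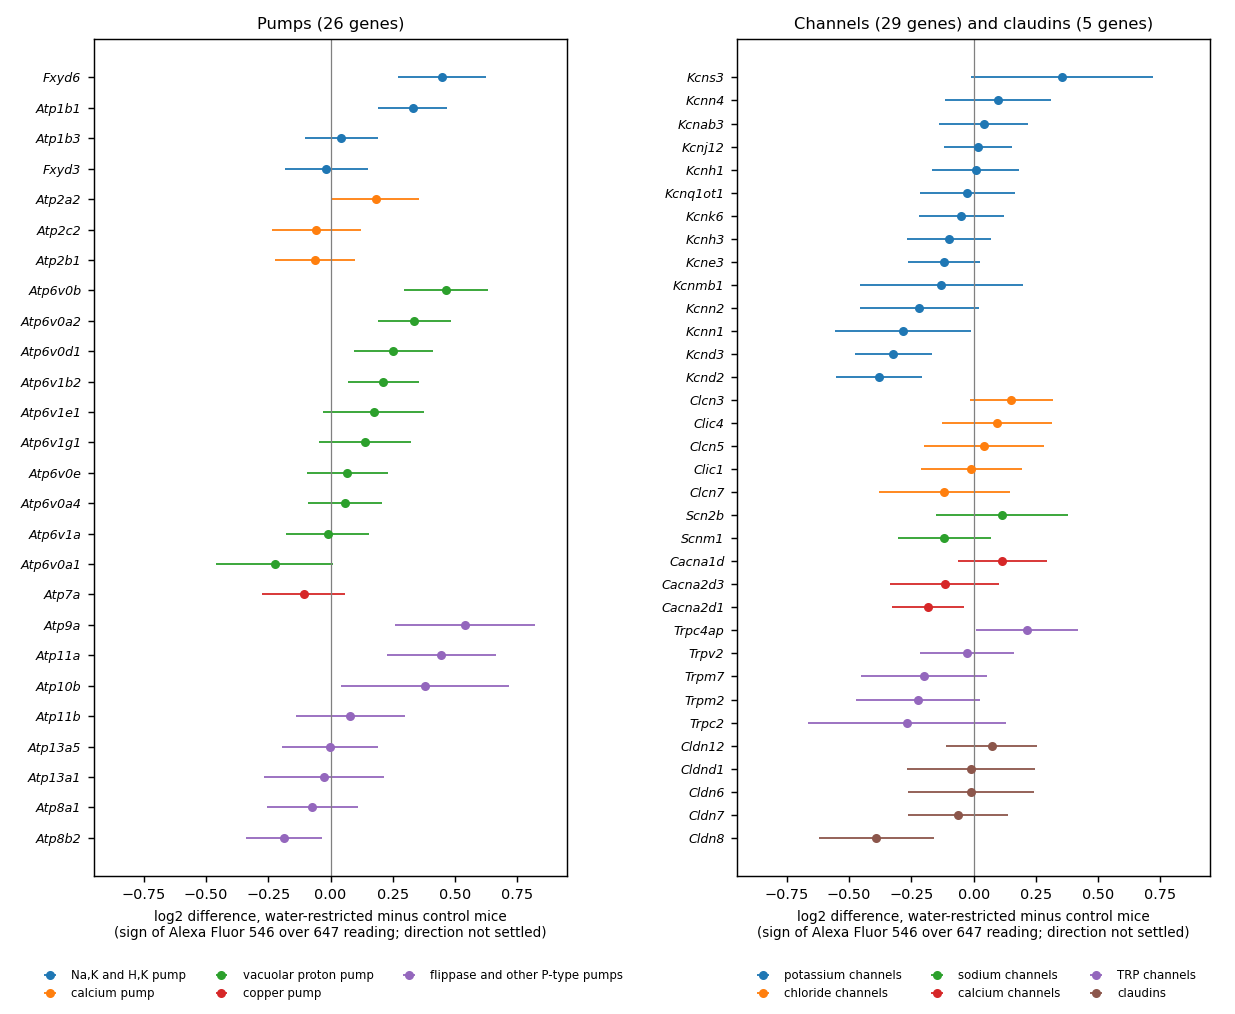
Log2 difference of water-restricted minus control mice for each of the 60 genes, ordered by role; points are differences and bars are 1 standard error (3 mice per group). The highest pump genes are Atp9a at 0.54, Atp6v0b at 0.46, Fxyd6 at 0.45 and Atp11a at 0.44, and most bars of the channel genes cross 0.

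The vacuolar proton pump was the largest role group of pumps, with 10 measured subunit genes. For 7 of them a promoter is held in the RefSeq table for the mouse build GRCm38.p6. They are relevant because lysosomal and proton pump genes are known to share the letters CACGTG, the core of the element that the factor TFEB binds. These letters read the same on both strands, and they occurred in 4 of the 7 promoters (57.1%) within the window from 250 bases before to 50 bases after the start, against 7.15% of all 32851 promoters and 6 of 59 promoters of the other genes described here. Those 59 promoters belong to 41 genes, of which 6 had CACGTG in a promoter. The longer TCACGTGA, which contains CACGTG, occurred in 3 of the 7, in 4 of the 59 and in 0.974% of all promoters. The 4 promoters are shown from 150 bases before the start to 20 bases from it, 5′ to 3′ on the gene's own strand, with CACGTG in capitals.
Atp6v0b, chr4:117887310-117887479, minus strand: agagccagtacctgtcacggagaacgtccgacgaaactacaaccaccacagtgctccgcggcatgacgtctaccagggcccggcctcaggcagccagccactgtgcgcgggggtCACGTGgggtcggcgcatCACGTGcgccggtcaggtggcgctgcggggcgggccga
Atp6v0d1, chr8:105566045-105566214, minus strand: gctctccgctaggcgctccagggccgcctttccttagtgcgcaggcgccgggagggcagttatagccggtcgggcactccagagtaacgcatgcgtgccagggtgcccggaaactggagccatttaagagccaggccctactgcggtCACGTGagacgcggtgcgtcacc
Atp6v0e, chr17:26676246-26676415, plus strand: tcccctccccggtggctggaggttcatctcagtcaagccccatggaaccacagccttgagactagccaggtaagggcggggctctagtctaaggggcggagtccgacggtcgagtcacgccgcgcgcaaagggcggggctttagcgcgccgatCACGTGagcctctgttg
Atp6v1a, chr16:44139240-44139409, minus strand: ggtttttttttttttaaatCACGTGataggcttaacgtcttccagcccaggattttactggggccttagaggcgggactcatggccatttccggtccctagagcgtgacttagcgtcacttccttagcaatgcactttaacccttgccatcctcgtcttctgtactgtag
Counted from the start site, with the first transcribed base as 1, the capitals begin at -36 and -18 in Atp6v0b, -3 in Atp6v0d1, 4 in Atp6v0e and -131 in Atp6v1a. The promoters of Atp6v0a1, Atp6v0a4 and Atp6v1e1 do not hold these letters in this window. Of the 4 genes shown, Atp6v0b and Atp6v0d1 had levels that did not overlap between the groups of mice, and Atp6v0e and Atp6v1a had levels that did. Atp6v0a2 and Atp6v1b2, whose levels did not overlap, and Atp6v1g1, whose levels did, have no promoter in the RefSeq table and were not examined for these letters. A match in a promoter is a description and no measure of binding.

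Of the 10 vacuolar pump genes, 8 were positive and 2 negative, with a median difference of 0.16 and a range of -0.22 to 0.46. The median difference was 0.10 without control mouse 2. The median level over the 10 was 0.08, 0.09 and 0.09 in water-restricted mice 1 to 3 and -0.04, -0.18 and -0.03 in control mice 1 to 3. The 3 medians of the water-restricted mice thus lay together above those of the controls, of which mouse 2 was the lowest. Among all genes the same medians ran from -0.00 to 0.03 in water-restricted mice and from -0.03 to 0.02 in control mice. In 4 of the 10 genes the mouse groups did not overlap, all positive, beside 5.94% of all genes in that direction, and they were 3 genes of the V0 sector and 1 of the V1 sector.

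Atp6v0b encodes a proteolipid of the rotating V0 ring. Its levels were 0.05, 0.19 and 0.45 in water-restricted mice 1 to 3 and -0.29, -0.34 and -0.07 in control mice 1 to 3. All 12 arrays were positive, from 0.05 through a median of 0.31 to 0.92. The groups did not overlap, water-restricted mouse 3 being the highest and control mice 1 and 2 the lowest. Its difference was 0.46 (SE 0.17, n = 3 per group, limma adjusted p = 0.884), with 0.53 in the 546 orientation and 0.34 in the 647 orientation.

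Atp6v0a2 encodes an isoform of the V0 a subunit, the stationary part of V0 that lets protons through, and is known for its part in endosomes and the Golgi. It stood at 0.12, 0.16 and 0.22 in water-restricted mice and at -0.19, -0.29 and -0.02 in control mice. The groups did not overlap, and 11 of 12 arrays were positive. The difference was 0.34 (SE 0.15, n = 3 per group, limma adjusted p = 0.996), but it was 0.64 in the 546 orientation and 0.10 in the 647 orientation. Atp6v0d1, the V0 subunit that couples the ring to the stalk, had levels of 0.05, 0.14 and 0.19 in water-restricted mice and -0.07, -0.34 and 0.03 in control mice, narrowly apart at control mouse 3 and water-restricted mouse 1. Its difference was 0.25 (SE 0.16, limma adjusted p = 0.996).

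Atp6v1b2 encodes the B2 subunit of the V1 head, the form found in most cells. Its levels were 0.10, 0.16 and 0.06 in water-restricted mice and -0.01, -0.19 and -0.12 in control mice, again with no overlap. The difference was 0.21 (SE 0.14, limma adjusted p = 0.996). Its 3 clones disagreed, at 0.36, 0.45 and -0.18, so the mean stands for 2 clones of one sign and 1 of the other.

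The other 6 subunits overlapped between the groups. Atp6v1e1 and Atp6v1g1, both of the stalk that links V1 to V0, differed by 0.17 (SE 0.20) and 0.14 (SE 0.18). Atp6v0e, a small V0 subunit, differed by 0.07 (SE 0.16). Atp6v0a4, the a subunit isoform of intercalated cells, differed by 0.06 (SE 0.15), with clones at 0.14 and -0.03. Atp6v1a, the catalytic subunit of V1, differed by -0.01 (SE 0.17), and its clones had opposite signs at -0.22 and 0.20. Atp6v0a1, a further a subunit isoform, had the lowest difference of the 10, -0.22 (SE 0.24), with levels of 0.05, -0.29 and -0.09 in water-restricted mice and -0.20, -0.08 and 0.62 in control mice. Control mouse 3 was alone at the high end for this gene. The a subunit genes therefore lay on both sides of 0, with Atp6v0a2 positive, Atp6v0a4 near 0 and Atp6v0a1 negative, and the differences between these genes were not tested.

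**Figure D2:**
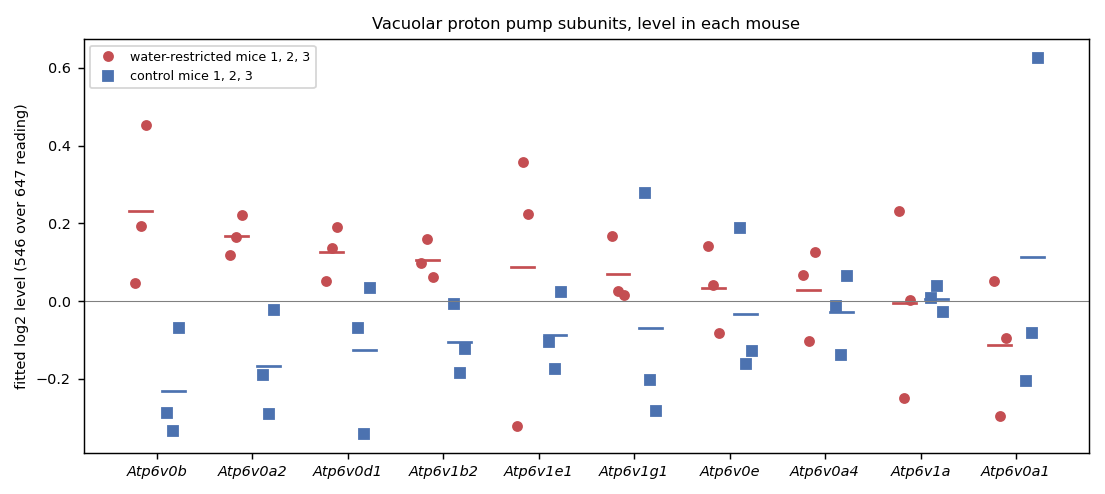
Fitted log2 level of 10 vacuolar proton pump genes in each of the 3 water-restricted mice (circles, left of each pair) and 3 control mice (squares), with bars at the group means. The 4 genes on the left do not overlap between the groups, and control mouse 3 stands at 0.62 for Atp6v0a1.

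The Na,K pump was represented by the 2 beta subunits and 2 regulators, with differences of median 0.19, 3 of 4 positive. Atp1b1 encodes the beta subunit that carries the catalytic subunit to the membrane and is the main form in kidney tubules. Its levels were 0.12, 0.22 and 0.16 in water-restricted mice and -0.14, -0.22 and -0.14 in control mice. Every water-restricted mouse lay above every control mouse, and the mice of each group lay close together. The difference was 0.33 (SE 0.14, n = 3 per group, limma adjusted p = 0.961), and 11 of 12 arrays were positive, from -0.00 through a median of 0.38 to 0.66. Of its 3 clones, those at 0.65 and 0.59 stood against 1 at -0.25, and the median over clones was 0.56. The difference was 0.16 in the 546 orientation and 0.49 in the 647 orientation. Atp1b3, a second beta subunit, differed by 0.04 (SE 0.15), with overlapping groups.

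Fxyd6 encodes a small membrane protein that tunes the Na,K pump and is best known from brain and inner ear. Its levels were 0.04, 0.22 and 0.41 in water-restricted mice and -0.44, -0.02 and -0.21 in control mice. The groups did not overlap, though water-restricted mouse 1 and control mouse 2 were close. The difference was 0.45 (SE 0.18, n = 3 per group, limma adjusted p = 0.920), with 11 of 12 arrays positive, from -0.08 through a median of 0.34 to 0.98. It was 0.59 in the 546 orientation and 0.28 in the 647 orientation. The 2 spots of the 1 Fxyd6 clone differed by a median of 0.49 over the arrays. That gap was 0.31 for all clones and 0.13 for the clone of Atp6v0b. Fxyd3, another regulator of the family, differed by -0.02 (SE 0.17).

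**Figure D3:**
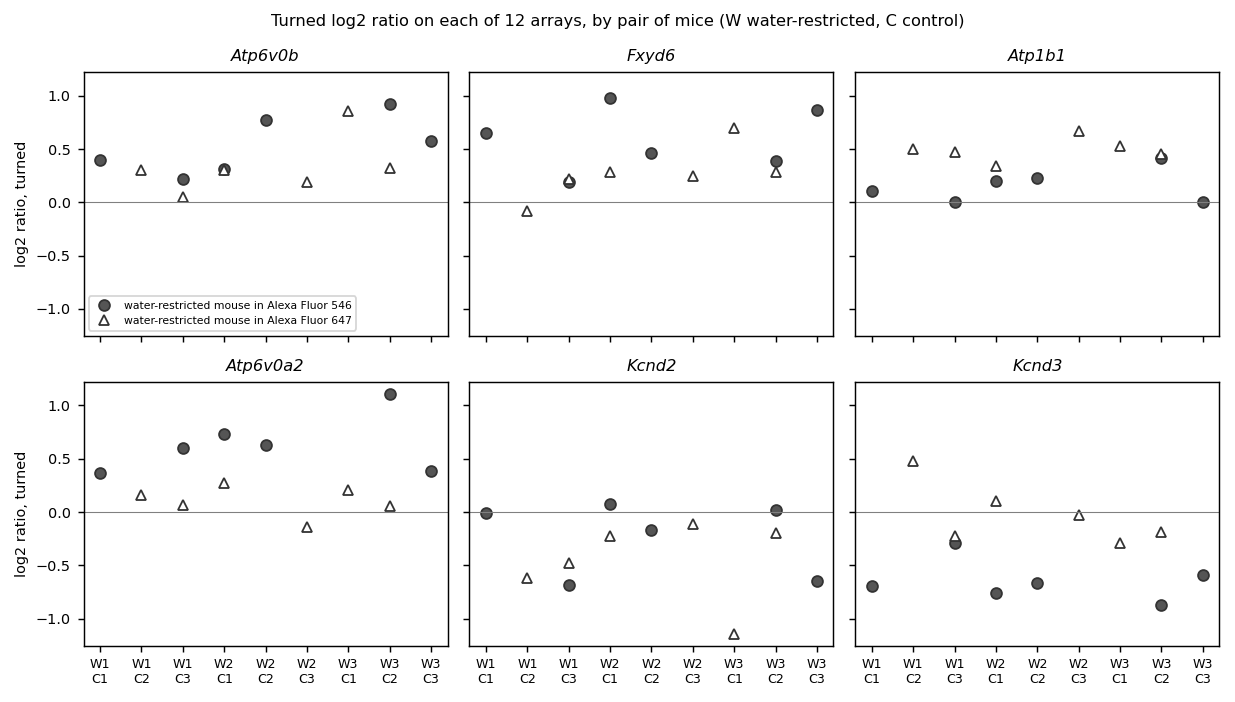
Turned log2 ratio of 6 genes on each of the 12 arrays, by pair of mice (W water-restricted, C control); filled circles are the 546 orientation and open triangles the 647 orientation. Atp6v0b is above 0 on all 12 arrays, and the filled circles of Kcnd3 lie below most of its triangles.

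The calcium pumps had differences of both signs. Atp2a2, the pump of the endoplasmic reticulum, had levels of 0.16, 0.32 and -0.21 in water-restricted mice and -0.07, -0.03 and -0.17 in control mice, and water-restricted mouse 3 was the lowest of the 6. Its difference was 0.18 (SE 0.18), with clones at 0.27, -0.09 and 0.35. Atp2b1, the plasma membrane pump, and Atp2c2, a pump of the secretory pathway, each differed by -0.06 (SE 0.16 and 0.18). Atp7a, which exports copper and loads it into enzymes, differed by -0.11 (SE 0.17).

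Flippases move phospholipids between the leaflets of a membrane, and with their relatives they gave 8 genes, 4 positive and 4 negative. Atp9a, a flippase-family protein of endosomes, had the largest difference of all 60, 0.54 (SE 0.28, limma adjusted p = 0.996). Its levels were 0.61, 0.31 and -0.10 in water-restricted mice and -0.06, -0.84 and 0.09 in control mice, so the groups overlapped and control mouse 2 was far below the rest. Atp11a, a flippase of the plasma membrane, had levels of 0.22, 0.31 and 0.13 in water-restricted mice and 0.22, -0.61 and -0.28 in control mice. Control mouse 1 lay with the water-restricted mice. The difference was 0.44 (SE 0.22, limma adjusted p = 0.996), and its 3 clones were alike, at 0.32, 0.48 and 0.53. It was 0.24 in the 546 orientation and 0.63 in the 647 orientation. In the proximal tubule markers, too, control mouse 1 stood at 0.22 and control mice 2 and 3 at -0.92 and -0.66, and their part in the level of Atp11a was not tested.

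Atp10b, a further flippase, differed by 0.38 (SE 0.34), but by 0.03 without the widest array. That array read 2.99 for it. The remaining genes of this group were Atp11b at 0.08, Atp13a5 at -0.00 and its relative of the endoplasmic reticulum, Atp13a1, at -0.03, and the flippases Atp8a1 at -0.07 and Atp8b2 at -0.19 (SE 0.15).

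Among the 14 genes named for potassium channels, 5 were positive and 9 negative, with a median difference of -0.07. The same genes were 10 positive and 4 negative when the widest array was left out, with a median of 0.03, so the side of 0 on which these genes lay turned on that array. None had an unadjusted p under 0.05. Kcnd2 encodes a pore of the fast, A-type potassium current. Its levels were -0.21, 0.07 and -0.43 in water-restricted mice and 0.22, 0.10 and 0.25 in control mice. The groups did not overlap, though water-restricted mouse 2 and control mouse 2 were close, and 2 of 12 arrays were positive. The difference was -0.38 (SE 0.17, n = 3 per group, limma adjusted p = 0.996). It was -0.29 when the widest array was left out, and the groups then overlapped, with water-restricted mouse 2 at 0.30 and control mouse 2 at -0.13.

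Kcnd3 encodes the related pore of the same current. It stood at 0.00, -0.18 and -0.31 in water-restricted mice and at 0.28, 0.08 and 0.13 in control mice, without overlap. The difference was -0.32 (SE 0.15, limma adjusted p = 0.996), and 2 of 12 arrays were positive. It was -0.64 in the 546 orientation and -0.03 in the 647 orientation, so nearly all of the Kcnd3 difference came from 1 orientation. For Kcnd2 the same values were -0.24 and -0.46. Principal cell markers were negative as well, and their part in the values of both genes was not tested.

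The calcium-activated potassium channels gave Kcnn1 at -0.28 (SE 0.27), Kcnn2 at -0.22 (SE 0.24) and Kcnn4 at 0.10 (SE 0.21). Kcnmb1, the beta subunit of the large-conductance channel, differed by -0.13 (SE 0.33). Without the widest array Kcnn1 stood at 0.06, Kcnmb1 at 0.17 and Kcnn2 at -0.06, so the signs of Kcnn1 and Kcnmb1 and most of the Kcnn2 difference rested on that array. Kcns3, a silent subunit that alters other voltage-gated channels, had the highest positive difference of the channels, 0.35 (SE 0.37). The level of water-restricted mouse 2 was 1.01 and that of control mouse 3 -0.68, with the other mice between -0.30 and 0.11. Both rested on the array of this pair, which read 2.94, and without it, in a fit chosen after seeing the data, the difference was 0.09 (SE 0.18). The accessory subunit Kcne3 differed by -0.12 (SE 0.14), or by 0.06 without the widest array, and the voltage-gated Kcnh3 by -0.10 (SE 0.17). The remaining 5 genes, the background channel Kcnk6, Kcnq1ot1, Kcnh1, the inward rectifier Kcnj12 and the beta subunit Kcnab3, lay from -0.05 to 0.04, though Kcnk6 was 0.08 without the widest array. Kcnj12 had the closest mouse levels of these, with all 6 mice between -0.04 and 0.02, but its arrays ran from -0.62 to 0.44.

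Chloride-handling genes lay near 0. Clcn3, an endosomal chloride-proton exchanger, differed by 0.15 (SE 0.17), and Clcn5, its relative in proximal tubule and intercalated cells, by 0.04 (SE 0.24). Clcn7, the exchanger of lysosomes, differed by -0.12 (SE 0.26), with levels of 0.36, -0.40 and -0.14 in water-restricted mice and -0.42, 0.24 and 0.35 in control mice. Mice of both groups lay at both ends for Clcn7. The intracellular channel proteins Clic4 and Clic1 differed by 0.09 (SE 0.22) and -0.01 (SE 0.20).

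Sodium and calcium channel names gave 5 genes. Cacna2d1 encodes the auxiliary alpha-2-delta subunit that brings calcium channels to the membrane. Its levels were -0.12, -0.05 and -0.10 in water-restricted mice and 0.18, -0.03 and 0.13 in control mice, the third channel gene without overlap, though water-restricted mouse 2 and control mouse 2 differed little. The difference was -0.18 (SE 0.14, limma adjusted p = 0.996). Leaving out the widest array, it was -0.10 and the groups overlapped, with water-restricted mouse 2 at 0.15 and control mouse 2 at -0.23. Cacna2d3, a relative, differed by -0.12 (SE 0.22) and the pore gene Cacna1d by 0.12 (SE 0.18). Scn2b, an auxiliary sodium channel subunit, differed by 0.11 (SE 0.26) and Scnm1 by -0.12 (SE 0.19).

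Among the 5 genes named for TRP channels, which pass calcium and other cations, 4 were negative, with a median of -0.20. On the 11 other arrays than the widest, 3 were negative and the median was -0.00. Trpc2, a channel known from the mouse vomeronasal organ, had levels of -1.11, 0.30 and 0.41 in water-restricted mice and -0.01, 0.56 and -0.15 in control mice. Water-restricted mouse 1 alone stood far below, and the difference was -0.27 (SE 0.40), or -0.41 without the widest array. Trpm2, a channel opened by oxidative stress, differed by -0.22 (SE 0.25), or by -0.08 without the widest array, and Trpv2 by -0.03 (SE 0.19). Trpm7, a channel with a kinase that carries magnesium, differed by -0.20 (SE 0.25), and its 4 clones lay at -0.40, 0.04, -0.42 and -0.01. Without the widest array Trpm7 stood at 0.09 and Trpc4ap, at 0.21 (SE 0.21) on all arrays, stood at -0.00.

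Of the claudins, 1 of 5 was positive. Cldn8, known in the distal nephron and collecting duct as part of the barrier against sodium and the paracellular chloride path, had levels of 0.13, -0.22 and -0.50 in water-restricted mice and 0.57, -0.06 and 0.07 in control mice. The groups overlapped through water-restricted mouse 1, but 10 of 12 arrays were negative. The difference was -0.39 (SE 0.23, limma adjusted p = 0.996), the lowest of the 60. Principal cells of the collecting duct carry Cldn8, and 4 of 4 of their measured markers were negative. Their part in this value was not tested. Cldn12, a claudin of calcium-permeable junctions, differed by 0.07 (SE 0.18), Cldn7, a further collecting duct claudin, by -0.06 (SE 0.20), the embryonic claudin Cldn6 by -0.01 (SE 0.25), and Cldnd1 by -0.01 (SE 0.26).

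**Figure D4:**
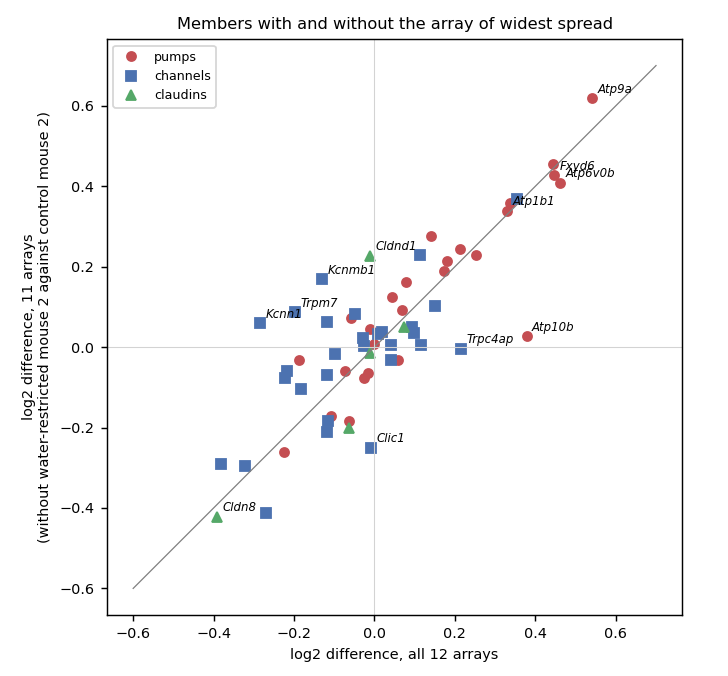
Log2 difference of each of the 60 genes on all 12 arrays (horizontal axis) and on the 11 arrays other than the widest, labelled by its pair of mice (vertical axis); the line marks equal values. Atp10b lies at 0.38 and 0.03 and Cldnd1 at -0.01 and 0.23, while Atp6v0b, Fxyd6 and Atp1b1 stay near the line.

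Leaving out the widest array changed the counts of signs. The number of positive channels was 16 of 29 without it and 11 with it, and that of positive pumps 18 of 26 without it and 16 with it. The 8 positive vacuolar pump genes of 10 were 7 in the 647 orientation and 8 in the 546 orientation. The median of the 10 was 0.35 in the 546 orientation and 0.04 in the 647 orientation, against medians of 0.05 and -0.04 over all genes.

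Other genes of the same pathways were taken from a list of 65 partners, such as assembly factors, channel kinases and junction proteins, of which 27 were measured. In that list 12 were positive and 15 negative, 3 had an unadjusted p under 0.05, beside 4.97% of all genes, and 0 passed after adjustment. The median difference was -0.02. Itpr2, which releases calcium from the endoplasmic reticulum, had levels of -0.75, 0.11 and -0.52 in water-restricted mice and 0.36, 0.25 and 0.54 in control mice. The difference was -0.77 (SE 0.23, limma adjusted p = 0.771). Sgk1, the kinase that raises sodium transport under aldosterone and osmotic stress, had levels of 0.33, 0.35 and 0.21 in water-restricted mice and -0.02, -0.21 and -0.67 in control mice. All 12 arrays were positive for it, and the difference was 0.59 (SE 0.19, limma adjusted p = 0.771). Slc4a1, the basolateral anion exchanger of intercalated cells and of red cells, differed by -0.74 (SE 0.24, limma adjusted p = 0.771).

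Slc4a1 was the only intercalated cell marker of 9 listed that was measured, and its sign was opposite to that of 8 of the 10 vacuolar pump genes. Of 4 listed erythroid markers, 2 were measured and both were negative, with mean levels of -0.68 to -0.11 in water-restricted mice and 0.20 to 0.45 in control mice, and their part in the Slc4a1 value was not tested. Further proton pump proteins, the a subunit isoform Tcirg1 and the associated protein Rnasek, differed by 0.24 (SE 0.22) and 0.28 (SE 0.22), with overlapping mice. Tmem30a, the partner subunit of most flippases, differed by 0.16 (SE 0.26).

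Mice of the same group were compared over the 12 arrays, with 4 contrasts per gene. None of the 60 genes passed after adjustment (limma F test), against 0.354% of all genes. Trpc2 came closest (F = 8.09, adjusted p = 0.113), followed by Atp11a (F = 7.98, adjusted p = 0.117) and Clic4 (F = 7.18, adjusted p = 0.132). The spread behind these values lay in different mice. It was water-restricted mouse 1 for Trpc2 and control mouse 1 against control mice 2 and 3 for Atp11a, and for Clic4 the levels were 0.10, 0.31 and -0.27 in water-restricted mice and 0.25, -0.39 and 0.01 in control mice. Without the widest array Clic1 (adjusted p = 0.0305), Trpc2 (adjusted p = 0.0404) and Atp11b (adjusted p = 0.0435) passed, among 2.92% of all genes.

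The dye term, which is the part of a ratio that stays with the dye when the mice are exchanged, passed after adjustment for 2 of the 60 genes and for 11.3% of all genes. For Atp6v1e1 it was 0.38 (SE 0.10, limma adjusted p = 0.0412). The Atp6v1e1 difference was 0.58 in the 546 orientation and -0.32 in the 647 orientation, so its sign followed the dye. For Kcnd3 the term was -0.32 (SE 0.08, limma adjusted p = 0.0332), and for Atp11a, the next, -0.20 (SE 0.06, adjusted p = 0.0646). Of the cell type markers, Slc4a1 (limma adjusted p = 0.0181), Krt18 (0.0114), Gatm (0.0164), Slc22a7 (0.00778) and the erythroid Hbb-b1 (0.0158) had a dye term that passed. The other measured markers did not. With equal weights for all arrays, 6.62% of all genes passed and Atp6v1e1 did so alone among the 60 (0.45, adjusted p = 0.0401). When the widest array was left out, neither Atp6v1e1 (adjusted p = 0.0538) nor Kcnd3 (adjusted p = 0.0533) passed, and Atp6v1g1 did (0.28, adjusted p = 0.0333), among 12.2% of all genes. Under a fit with mice as random effects, 1.65% of all genes passed in the group comparison and none of the 60 did. At an unadjusted p under 0.05, 10 of the 60 passed in that fit, beside 12.4% of all genes. The lowest adjusted p among them were then 0.0749 for Atp6v0b, 0.0764 for Fxyd6 and 0.0975 for Atp1b1.

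**Figure D5:**
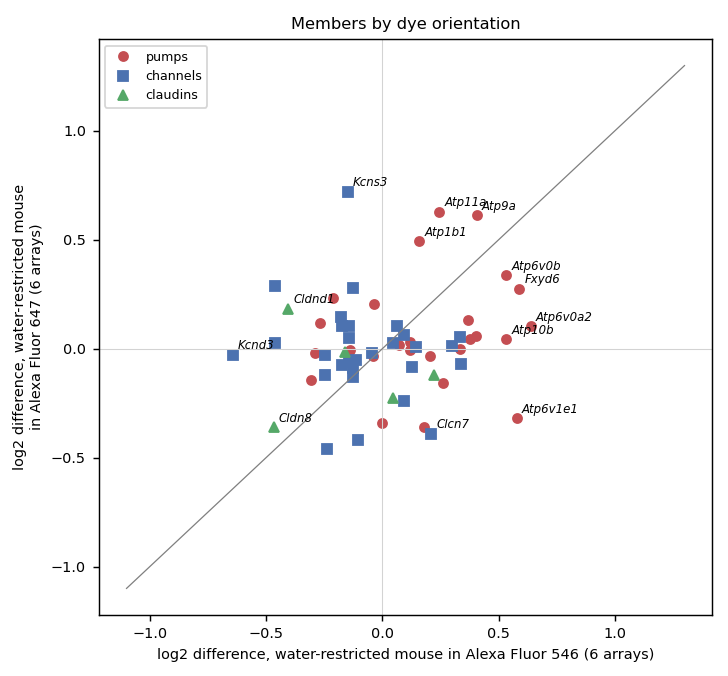
Log2 difference of each of the 60 genes in the 6 arrays of the 546 orientation (horizontal axis) and the 6 of the 647 orientation (vertical axis); the line marks equal values. Atp6v1e1 lies at 0.58 and -0.32, Kcnd3 at -0.64 and -0.03, and Atp6v0b at 0.53 and 0.34.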

How the data were processed

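The 12 arrays of 2 colours carried amplified renal medulla RNA, per the labels, of 3 water-restricted and 3 control mice. The authors deposited 1 log2 ratio per spot, for 31200 spots; the sources used here give neither its numerator nor its background correction, normalization or centring. Signal over background could not be read from ratios, and precision is limited by how many arrays there were.

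Signs were turned for the 6 arrays of the 647 orientation. The 2 spots of each of 15600 clones were averaged. Clones with 1 gene in the platform annotation (9191, against 254 with several and 6155 with none) were averaged to 6786 genes. A RefSeq symbol was found for 9085 of these clones, and the others kept the symbol of the annotation. No spot was filtered. Least squares gave 6 mouse levels and a dye term per gene, with the arrays of the 3 pairs made in both orientations weighted 0.5. The levels were tested 3 against 3 in limma 3.58.1 (R 4.3.3), and differences within a group and the dye term on the arrays, with Benjamini-Hochberg adjustment over all genes and a threshold of 0.05. For 1 gene, an exact permutation test of 3 against 3 could not go below p = 0.1. The fits were tested on simulated data, with normal error of 1 size per gene on every array. That simulation therefore does not cover an array of wider spread.

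The text tests or details, in each role list, the 2 genes of smallest p, and every member with an unadjusted p under 0.05, the 3 of largest F and the 3 of smallest dye p; all other members are given by value. The members and lists were chosen with earlier results of these data known. Alternatives were another centring and scaling, a replicate block, random mouse effects, no dye term, each orientation, signs left as deposited, each mouse or the widest array left out, and the median over clones, with equal weights for the arrays, and Kcns3 without 1 array, added after seeing the data.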

Additional observations from a re-analysis of the deposited data

Results flagged for a closer look

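Each member was examined in each dye orientation, 120 groups of 6 arrays, for an array far from the other 5, and 17 were found in 15 genes. The cut used is passed by about 1 in 20 groups of independent normal values, but these arrays share mice and differ in spread. The share over all genes was not counted, so the 17 are not read against a background. Of the 17, 9 were the widest array, that of water-restricted and control mice numbered 2. It read 2.99 for Atp10b, 1.38 for Trpc4ap, 0.97 for Cacna1d, 0.82 for Clic4, 0.38 for Atp2b1, -0.99 for Scn2b, -2.02 for Trpm7, -2.26 for Kcnmb1 and -2.31 for Kcnn1. Atp6v0b read 0.86 on the array of the pair of water-restricted mouse 3 and control mouse 1, above 0.05 to 0.32 on the other 5 of that orientation, and on the same array Clic1 read 0.86 and Trpc4ap 0.89. Water-restricted mouse 2 gave 2.94 for Kcns3 against control mouse 3 and 1.89 for Kcnq1ot1 against control mouse 1. Water-restricted mouse 1 gave -2.15 for Trpc2 against control mouse 2, and against control mouse 3 it gave 0.68 for Kcnk6 in one orientation and 1.02 for Scn2b in the other. The orientations also differed, by the dye term, for Atp6v1e1 (0.38) and Kcnd3 (-0.32).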

How the results depend on the processing

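No member passed the adjusted threshold in the group comparison under any alternative run. Leaving out the dye term could not change that comparison, because the weights balance the dyes over each mouse. Members with an unadjusted p under 0.05 numbered 3; they numbered 10 with random mouse effects (12.4% of all genes there), 5 with the median over clones, 1 with signs left as deposited, and 0 (without water-restricted mouse 3) to 3 with 1 mouse left out, among them 1 without control mouse 1 or 2. The mouse number as a replicate block gave 2. The share of all genes was not counted for the median over clones, signs left as deposited, 1 mouse left out or the replicate block. These counts, and that of the dye term with signs left as deposited, are therefore not set against a background. The deviations of same-numbered mice correlated at -0.54 to -0.01. Error of a shared array enters both its mice with opposite signs, so these values cannot settle whether the numbers pair the mice. The median difference of pumps, 0.07, was 0.19 in the 546 orientation, and 0.047 (without control mouse 2) to 0.17 (without control mouse 1) with 1 mouse left out. That of channels, -0.05, was -0.13 in the 546 orientation, and -0.12 (without control mouse 1) to -0.0052 (without control mouse 2); without the widest array it was 0.0043. That of the vacuolar pump, 0.16, was 0.35 in the 546 orientation, 0.043 in the 647 orientation, and 0.10 (without control mouse 2) to 0.22 with 1 mouse left out. Members with differences between mice numbered 3 rather than 0 without the widest array, and those with a dye term 1 rather than 2 there (Atp6v1g1, neither of the 2) and with equal weights (Atp6v1e1), and 7 with signs left as deposited; median centring ended the call of Atp6v1e1 (adjusted p = 0.0537) and made that of Atp11a (0.0470). Of all 60 members, the sign turned for 14 without the widest array, 11 in the 546 orientation, 17 in the 647 orientation and 17 with signs left as deposited. Among the 21 genes named for their p in the group comparison, it turned in the 546 orientation for Clcn7 (0.21), and in the 647 orientation for Atp2b1 (0.12), Clcn3 (-0.071), Cldn12 (-0.12) and Trpm2 (0.025). With signs left as deposited they turned for Clcn7 (0.34), Atp11a (-0.20; dye term 0.44), Atp9a (-0.11), Atp1b1 (-0.19) and Kcnd2 (0.13), and without the widest array for Trpc4ap (-0.0038). With 1 mouse left out the sign turned at one end of the range for Cacna1d (-0.0052 to 0.20), Atp2b1 (-0.15 to 0.020), Clcn7 (-0.35 to 0.051), Cldn12 (-0.020 to 0.21), Scnm1 (-0.25 to 0.0052), Scn2b (-0.075 to 0.34) and Trpm2 (-0.43 to 0.024). The cause was not tested.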
